A study of Mus musculus with 16 samples.

Results

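The ephrin and semaphorin axon guidance genes described here are 10 genes of the 16593 measured: the ligands Sema3f, Sema3a, Efna5 and Efna3, and the receptors Nrp1, Nrp2, Plxna3, Epha4, Epha5 and Epha7. Every probe that the platform annotation assigns to one of these symbols was taken, which gave 18 of 25697 probes. RNA of the hippocampus was read in 1 colour on 16 MouseRef-8 v2 BeadChip arrays, with 4 arrays in each of 4 groups. All groups were male Swiss-Webster mice aged 15 weeks by the labels, while the text of the study gives other ages. The HA and LA lines come from selection on analgesia after a swim stress, high in HA and low in LA. Mice of each line received 21 daily intraperitoneal injections of desipramine (DMI, 7.5 mg/kg/day), a tricyclic that blocks noradrenaline reuptake, or of saline, and tissue was taken 2 days after the last one. By the methods each array held pooled RNA of 3 mice, so that 12 mice made up a group and the spread between arrays is a spread between pools. The labels name no other agent or allele. Each line is a single bred population, so a line difference cannot be told apart from chance divergence of the lines. The treatment note attached to the saline samples also names desipramine, and the groups were taken from the sample titles.

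Class 3 semaphorins are secreted proteins that mostly repel growing axons. They bind a neuropilin (Nrp1 mainly for Sema3a, Nrp2 mainly for Sema3f), which signals through a plexin of the A class such as Plxna3. Ephrin-A ligands such as Efna5 and Efna3 are held on the membrane by a lipid anchor and bind Eph receptor tyrosine kinases of the A class on a neighbouring cell. In the adult hippocampus both systems act on mossy fibre pathways, dendritic spines and synapses.

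The mean signal of an array ran from 240 to 421 and the number of probes detected from 12900 to 13886, with a correlation between arrays of one group of 0.989 to 0.996. Detection of a probe means a detection p under 0.05, which sets its signal against the negative controls of that array. Markers of hippocampal principal cells, such as Prox1 and Neurod6, had a mean log2 signal between 8.31 and 8.61 on every array. Markers of neighbouring tissue differed between groups more than these did. The thalamus and habenula list (19 of 20 genes measured, 17 of them detected on at least 4 arrays) stood at 8.02 to 8.05 on the HA saline arrays, 7.32 to 7.62 on HA DMI, 7.21 to 7.57 on LA DMI and 7.20 to 7.76 on LA saline. In bulk tissue, fewer cells of a type and less RNA per cell cannot be told apart.

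Of the 18 probes, 14 were detected on at least 4 arrays. The 4 others were detected on no array: the only Plxna3 probe, Sema3f probe C, Nrp2 probe C and Efna5 probe B. Letters order a gene's probes by mean level, from A for the brightest. The Epha4 probe reached detection on 4 arrays and Nrp2 probe B on 5. Nrp2 probe A was detected on 15, and the remaining 11 probes were detected on all 16. The platform annotation ties Nrp2 probe B to another transcript record than probes A and C. Levels below are log2 signals after quantile normalization, and the levels of different probes are not comparable, since each has its own brightness.

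Sema3f, the secreted ligand of Nrp2, was the 1 member that passed the test between DMI-labelled and saline-labelled arrays of the HA line. At probe A the HA saline arrays read 7.66, 7.76, 7.64 and 7.80, and the HA DMI arrays 7.14, 7.10, 7.18 and 7.03. All 4 DMI-labelled arrays lay below all 4 saline-labelled ones, and the difference (DMI minus saline) was -0.60 (SE 0.11, 95% interval -0.83 to -0.37), or 1.51-fold lower. The study describes Sema3f and Efna5 as raised by DMI in this line, the opposite of the signs here, so the values are given by label and no direction of drug action is drawn. Its qPCR of selected genes, which it reports as matching its arrays, included neither. It did include genes of marker lists that, as given below, also went in the opposite direction to the study. The opposite sign was thus not limited to Sema3f and Efna5, and Vav3 and Ntng1 below are further cases. The adjusted p was 0.027 by limma, with Benjamini-Hochberg adjustment over all probes, and a probe was called at an adjusted p under 0.05 with a log2 difference over 0.5. In this comparison 0.113% of all probes were called, and 0.0856% of all probes were called as lower on DMI-labelled arrays.

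Probe B of Sema3f moved in the same direction by a smaller amount. HA saline arrays read 7.56, 7.30, 7.42 and 7.30 and HA DMI arrays 7.16, 7.002, 6.98 and 7.01, again without overlap. The difference was -0.36 (SE 0.14, adjusted p = 0.40 by limma) and was not called. Over the 16 arrays the levels of the 2 probes had a Pearson correlation of 0.85, a description of arrays that share line and label. Probe C lay at 6.36 to 6.68 on all arrays, within the range of undetected signal, and says nothing of the transcript.

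The call of Sema3f probe A depended on all 8 HA arrays. Leaving out any 1 of them gave an adjusted p between 0.056 and 0.097, with differences of -0.57 to -0.63, whereas the call was kept without any 1 of the LA arrays. Scaling by medians in place of quantile normalization gave -0.64 with an adjusted p of 0.22, and normexp background correction gave -1.09 (adjusted p = 0.034). With the 4 HA saline arrays averaged into 1 sample, a choice made after their marker levels were seen to vary little, the difference was the same and the adjusted p was 1.00 (unadjusted p = 0.0066), with the spread of the lone sample assumed to be that of the other groups.

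In the LA line Sema3f was lower on DMI-labelled arrays too, without passing the test. Probe A read 7.61, 8.07, 7.44 and 7.62 on LA saline and 7.64, 7.23, 7.15 and 7.34 on LA DMI arrays. One DMI-labelled array, at 7.64, lay among the saline-labelled ones. The difference was -0.34 (SE 0.11, unadjusted p = 0.0061, adjusted p = 0.34 by limma), and that of probe B was -0.21 (SE 0.14, adjusted p = 0.72). The 2 lines' differences at probe A were themselves apart by -0.26 (HA minus LA, 95% interval -0.58 to 0.07, adjusted p = 0.81), so a difference between the lines in this respect was not shown. No detected member probe was called in the LA line by limma, against 0.0311% of all probes, and Sema3f probe A was the 1 of 14 with an unadjusted p under 0.05, as 8.68% of all probes had. The lines did not differ detectably in Sema3f on saline-labelled arrays (0.03 at probe A, 95% interval -0.20 to 0.26).

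**Figure D1:**
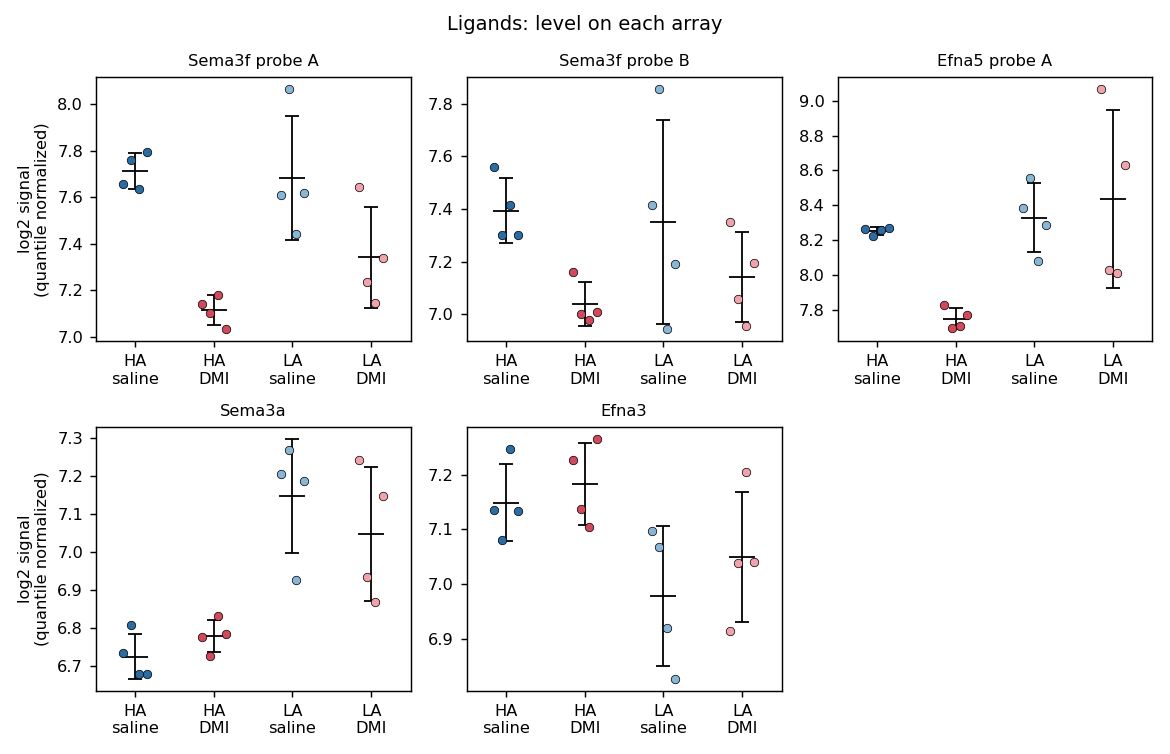
Log2 signal of the detected ligand probes on each array, by line and label, with bars for the mean and SD of 4 arrays. At Sema3f probe A and Efna5 probe A every HA DMI array lies below every HA saline array, and Efna5 spans 8.01 to 9.07 on LA DMI. Sema3a is lower on all 8 HA arrays than on all 8 LA arrays, by a narrow gap (6.83 against 6.87).

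Efna5, the membrane-anchored ligand of Eph receptors, had the second-largest HA difference among the members. Probe A read 8.26, 8.22, 8.26 and 8.27 on HA saline and 7.83, 7.69, 7.70 and 7.77 on HA DMI arrays. The groups were far apart for their own spread (SD 0.022 and 0.062, n = 4 each), and the difference was -0.50 (SE 0.16, 95% interval -0.85 to -0.16). It was not called when all 16 arrays shared 1 estimate of the spread (unadjusted p = 0.0069, adjusted p = 0.28 by limma). Among the alternatives, only the fit of the 8 HA arrays called it (adjusted p = 2.4e-04), and that fit rests on the small spread of these arrays. Median scaling gave -0.53 (adjusted p = 0.76). With the HA saline arrays averaged into 1 sample the difference was again -0.50 and was not called.

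The largest spread lay in the LA DMI group, where Efna5 read 9.07, 8.03, 8.01 and 8.63 (SD 0.51). LA saline arrays read 8.38, 8.56, 8.08 and 8.29, inside the range of the DMI-labelled ones. The LA difference was 0.11 (SE 0.16, adjusted p = 0.92), and it was -0.10 without LA DMI array 1. Without that array the adjusted p of the HA difference was 0.056. The HA difference lay -0.61 from the LA difference (95% interval -1.10 to -0.12, unadjusted p = 0.018, adjusted p = 0.59), and no member was called in that test by limma, which called 0.00389% of all probes. Efna5 probe A was the 1 member of 14 with an unadjusted p under 0.05 there, as 6.99% of all probes had.

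Between the lines, Efna5 probe A was lower in HA than in LA on DMI-labelled arrays. All HA DMI arrays (7.69 to 7.83) lay below all LA DMI arrays (8.01 to 9.07), with a difference of -0.69 (SE 0.16, adjusted p = 0.020, called), where 0.852% of all probes were called. The call was lost with median scaling (-0.53, adjusted p = 0.17), with only these 8 arrays in the fit (adjusted p = 0.060), with the HA saline arrays averaged (adjusted p = 0.051), without HA DMI array 2 (adjusted p = 0.053) and without LA DMI array 4 (adjusted p = 0.073). Without LA DMI array 1 the difference was -0.48, short of the limit on size. On saline-labelled arrays the difference was -0.08 (95% interval -0.42 to 0.27, and 0.15 with median scaling). Efna5 probe B stayed at 6.46 to 6.63 on every array and was not detected.

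Sema3a, the secreted ligand of Nrp1, separated the lines and not the labels. On saline-labelled arrays it read 6.73, 6.81, 6.68 and 6.68 in HA and 7.20, 7.27, 6.93 and 7.19 in LA. On DMI-labelled arrays it read 6.78, 6.73, 6.83 and 6.78 in HA and 7.24, 6.93, 6.87 and 7.15 in LA. All 8 HA arrays lay below all 8 LA arrays. The line difference was -0.42 on saline-labelled arrays (SE 0.08, adjusted p = 0.0030), which met the adjusted p, as 6.36% of all probes did, but not the limit on size. On DMI-labelled arrays, which are other pools, it was -0.27 (SE 0.08, adjusted p = 0.058). Normexp background correction, which widens differences of dim probes, gave -1.06 and -0.67, both called (adjusted p = 0.0029 and 0.048). Without LA saline array 3 the first difference was called at -0.50, and with the HA saline arrays averaged its adjusted p was 0.34. The DMI-minus-saline differences were 0.05 in HA and -0.10 in LA (SE 0.08 each, adjusted p = 0.94 and 0.80).

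Efna3, a further ephrin-A ligand, spanned only 6.83 to 7.27. Its largest difference was between the lines on saline-labelled arrays, at 0.17 (SE 0.07, unadjusted p = 0.021, adjusted p = 0.17). Its DMI-minus-saline differences were 0.03 in HA and 0.07 in LA.

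**Figure D2:**
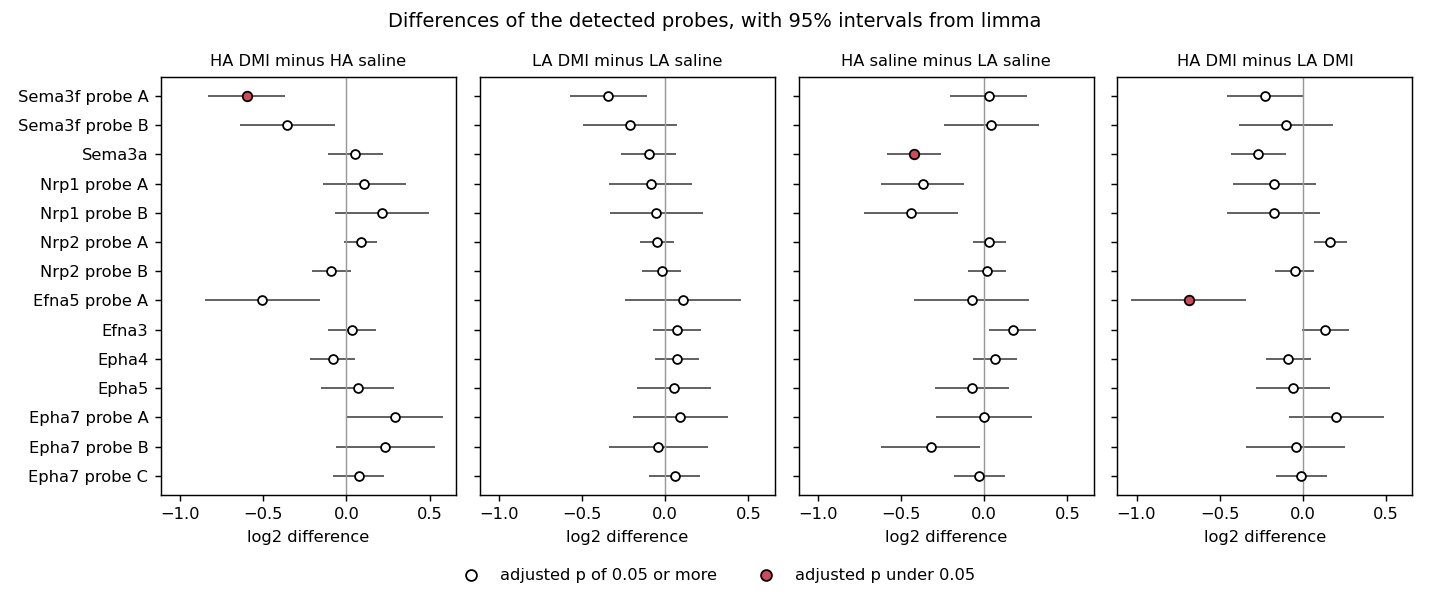
Log2 differences of the 14 detected member probes in 4 comparisons, with 95% intervals from limma; filled points have an adjusted p under 0.05. The filled points are Sema3f probe A within HA, Sema3a between the lines on saline-labelled arrays and Efna5 probe A between the lines on DMI-labelled arrays.

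The neuropilins, the binding receptors of class 3 semaphorins, showed no difference between DMI-labelled and saline-labelled arrays that passed the test. Nrp1 differed by 0.11 and 0.21 at probes A and B in HA (adjusted p = 0.91 and 0.77) and by -0.09 and -0.05 in LA. For Nrp2 the HA differences were 0.09 at probe A and -0.09 at probe B, with intervals from -0.01 to 0.18 and from -0.21 to 0.03. The 2 detected Nrp2 probes thus had opposite signs, and both intervals include 0.

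Nrp1 was lower in HA than in LA on saline-labelled arrays at both probes, short of the threshold. Probe B read 9.64, 9.76, 9.75 and 9.68 on HA saline and 10.07, 9.84, 10.29 and 10.39 on LA saline. The groups did not overlap, and the difference was -0.44 (SE 0.13, adjusted p = 0.059). Probe A differed by -0.37 (SE 0.12, adjusted p = 0.076), with overlap. With median scaling the same differences were -0.13 and -0.06, so their size rested on the normalization. Without LA saline array 2, probe B was called at -0.54. On DMI-labelled arrays the differences were -0.17 and -0.18, and their signs turned with median scaling (0.03 and 0.02).

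Nrp2 probe A, which is close to the limit of detection, was slightly higher in HA on DMI-labelled arrays. HA DMI arrays read 6.89, 6.96, 6.83 and 6.88 and LA DMI arrays 6.66, 6.76, 6.76 and 6.72, without overlap. The difference was 0.17 (SE 0.05, adjusted p = 0.053), and on saline-labelled arrays it was 0.03. For Plxna3, the plexin that pairs with Nrp2 in Sema3f signalling, no statement is possible, since its probe lay at 6.44 to 6.61 and was detected nowhere.

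None of the member Eph receptor tyrosine kinases (Epha4, Epha5 and Epha7) passed the test in any of the 5 comparisons. Epha7 was higher on HA DMI than on HA saline arrays by 0.29, 0.23 and 0.07 at probes A, B and C (SE 0.14, 0.14 and 0.07, adjusted p = 0.57, 0.74 and 0.89), and the groups overlapped at each. Probe A read 9.19, 9.15, 9.57 and 8.89 on HA DMI and 8.91, 8.75, 9.01 and 8.96 on HA saline. Between the lines on saline-labelled arrays, Epha7 probe B differed by -0.32 (adjusted p = 0.23) while probe A differed by -0.00067 and probe C by -0.03.

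Epha5 had DMI-minus-saline differences of 0.07 in HA and 0.05 in LA (SE 0.10 each). Epha4 was not detected on any HA DMI or LA saline array, and its differences of -0.08 in HA and 0.07 in LA (SE 0.06 each) are those of a signal at the limit of detection.

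**Figure D3:**
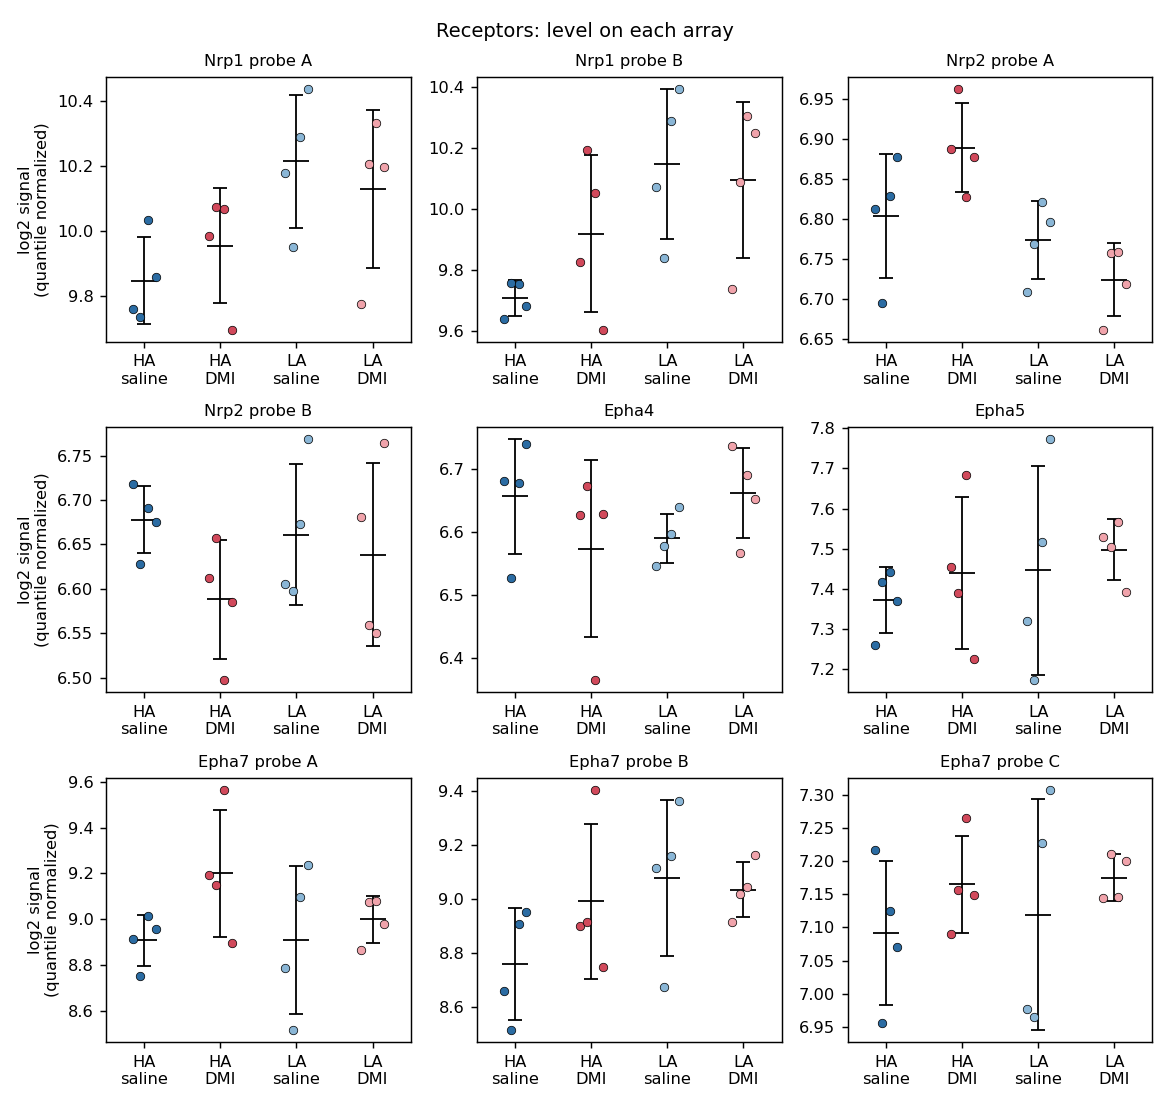
Log2 signal of the 9 detected receptor probes on each array, by line and label, with bars for the mean and SD of 4 arrays. The HA DMI and HA saline arrays overlap at every receptor probe; Nrp1 probe B on saline-labelled arrays and Nrp2 probe A on DMI-labelled arrays separate the lines.

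Counted over the 14 detected probes, 3 were lower on every HA DMI array than on every HA saline array, against 3.54% of all probes, and none was higher on every one, as 2.26% of all probes were. An unadjusted p under 0.05 was found for 4 of the 14 (the same 3 and Epha7 probe A), as for 8.56% of all probes. Those 3 were both Sema3f probes and Efna5 probe A. In LA no detected member separated the labels, against 3.95% of all probes. Between the lines, 2 members (Sema3a and Nrp1 probe B) separated on saline-labelled arrays, where 10.4% of all probes did, and 3 (Efna5 probe A, Sema3a and Nrp2 probe A) on DMI-labelled arrays, where 10.3% did. No detected member was called between the lines on saline-labelled arrays by limma, where 1.19% of all probes were called, and 5 had an unadjusted p under 0.05, as 18.1% of all probes had. The shares of all probes, here and above, include undetected probes, so they are not like for like with counts of detected members. Over all 18 member probes, 16.7% separated the HA labels and 22.2% had an unadjusted limma p under 0.05 there.

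Ligand and receptor were also set against each other within arrays. For each pair of probes detected on at least 4 of the 16 arrays the log2 level of the ligand minus that of the receptor was taken per array, and the 4 DMI-labelled arrays of a line were compared with the 4 saline-labelled ones by an exact two-sided permutation test. Its smallest possible p is 0.0286, over 70 splits. This compares how much the 2 probes moved, not how high they were.

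In HA all 13 pairs reached that smallest p (exact permutation, adjusted p = 0.0286 over the 13 pairs). With every pair tied at that value, the adjustment could not change it. Each ligand probe had by itself separated the HA labels without overlap, so this outcome was largely set before the pairs were formed. The Sema3f change minus the neuropilin change was -0.51 to -0.81 at probe A and -0.27 to -0.57 at probe B, the extremes being with Nrp2 probe B and Nrp1 probe B. Efna5 probe A was displaced by -0.42 against Epha4, -0.57 against Epha5 and between -0.58 and -0.80 against the Epha7 probes. In each pair the ligand was thus lower relative to its receptor on HA DMI than on HA saline arrays. In 3 of the pairs the receptor probe (Nrp2 probe B or Epha4) was detected on no HA DMI array, so those 3 values rest on a receptor signal not above background there. The other 10 pairs all reached the smallest p.

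In LA 0 of 13 pairs had an unadjusted exact permutation p under 0.05 (0.11 to 0.97), with -0.13 to -0.32 for Sema3f and 0.02 to 0.15 for Efna5. The difference between the lines was not tested for the pairs. The 13 pairs share 3 ligand probes and the same arrays, and the ligands were known from earlier results of these data to differ in HA, so the count is not independent evidence. Leaving out 1 array gave 9 to 13 pairs in HA.

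**Figure D4:**
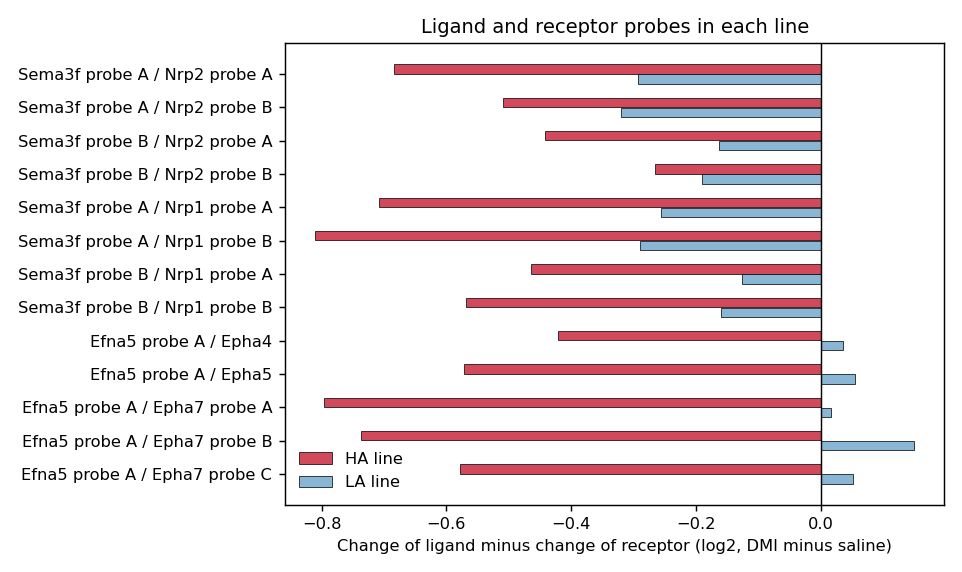
Change of the ligand minus change of the receptor (log2, DMI-labelled minus saline-labelled arrays) for 13 pairs of detected probes, with 1 bar per line. All HA bars lie between -0.27 and -0.81; the LA bars lie between -0.32 and 0.15.

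Marker levels of other cell types and tissues differed between the same labels. The lists were chosen with earlier results of these data known, and several hold genes that the study reports as raised by DMI. Examples are Gbx2 and Slc17a6 in HA, and Ttr and Otx2 in LA. Counts and medians of these lists are therefore not independent evidence. The thalamus and habenula list in HA and the choroid plexus list in LA went in the opposite direction to that report. In HA 0 of 19 thalamus and habenula differences were positive. The study's qPCR, on RNA of individual mice, included Gbx2 and Slc17a6 in HA and Ttr and Otx2 in LA. The study reports that it bore out the array differences. Within HA, 4 of 19 measured thalamus and habenula markers were called lower on DMI-labelled arrays, where 0.139% of all genes were called in either direction. The list's median difference was -0.62, against 0.00074 over all genes. Leptomeningeal and fibroblast markers (13 of 13 measured, 9 detected) stood at 8.005 to 8.03 on HA saline, 7.73 to 7.79 on HA DMI, 7.59 to 7.78 on LA DMI and 7.74 to 8.07 on LA saline arrays. Both lists were thus lower on every HA DMI than on every HA saline array.

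Further lists separated the HA labels without overlap. Astrocyte markers (10 of 10 measured and detected) stood at 9.01 to 9.12 on HA saline and 8.81 to 9.003 on HA DMI arrays. Oligodendrocyte and myelin markers (11 of 15 measured, 10 detected) stood at 10.18 to 10.30 on HA saline and 9.95 to 10.13 on HA DMI arrays, and all 11 had a negative difference. Choroid plexus markers (12 of 16 measured, 11 detected) stood at 8.25 to 8.38 on HA saline and 8.11 to 8.24 on HA DMI arrays. Hippocampal principal cell markers (13 of 17 measured, 11 detected) went the other way, from 8.39 to 8.47 on HA saline to 8.49 to 8.55 on HA DMI arrays, with 9 of 13 differences positive.

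Within LA, where Sema3f was lower on DMI-labelled arrays short of the threshold, choroid plexus markers stood at 7.72 to 8.18 on LA saline and 7.27 to 7.57 on LA DMI arrays, with 12 of 12 differences negative and 2 called lower. Striatal projection neuron markers (12 of 17 measured, 10 detected) had a median difference of -0.56, and 10 of 12 had an unadjusted p under 0.05, with 0 called by limma. Over all genes in LA, 0.0241% were called and 9.31% had an unadjusted limma p under 0.05. The thalamus and habenula list had a median difference of -0.02 there.

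LA saline array 2 had the highest Sema3f level of all arrays (8.07) and the highest level of its group in the thalamus and habenula list (7.76). After the group means were subtracted, Sema3f probe A had a Pearson correlation of 0.67 with the thalamus and habenula list. The correlation was 0.73 with the leptomeninges and fibroblast list, 0.67 with choroid plexus, -0.80 with hippocampal principal cells and -0.12 with microglia. The values were 0.59 with oligodendrocytes, 0.50 with endothelium, 0.45 with astrocytes and 0.43 with striatal projection neurons. Those of Efna5 probe A ran from -0.58 (hippocampal principal cells) to 0.57 (choroid plexus), with 0.52 for the thalamus and habenula list. Without the subtraction Efna5 probe A had 0.18 with that list and 0.76 with endothelium, over 16 arrays that share line and label. The values after subtraction only describe the arrays and rest mostly on LA, where both probes varied more. The SD of Sema3f probe A was 0.27 on LA saline and 0.22 on LA DMI, against 0.078 on HA saline and 0.064 on HA DMI arrays. For Efna5 probe A it was 0.20 and 0.51, against 0.022 and 0.062. Correlations within HA alone were not taken. The part of these tissues in the Sema3f and Efna5 values was not tested.

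Marker levels also differed between the lines. Endothelial markers (9 of 10 measured, 8 detected) stood at 7.51 to 7.59 on HA saline and 7.63 to 7.74 on LA saline arrays, and at 7.42 to 7.53 on HA DMI and 7.60 to 7.74 on LA DMI arrays. The list level was lower in HA in both comparisons, with 5 of 9 differences negative on saline-labelled and 8 of 9 on DMI-labelled arrays. Choroid plexus markers stood at 8.11 to 8.24 on HA DMI and 7.27 to 7.57 on LA DMI arrays, higher in HA. Striatal projection neuron markers stood at 7.58 to 7.62 on HA saline and 7.53 to 8.67 on LA saline arrays. Their part in the line differences was not tested.

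**Figure D5:**
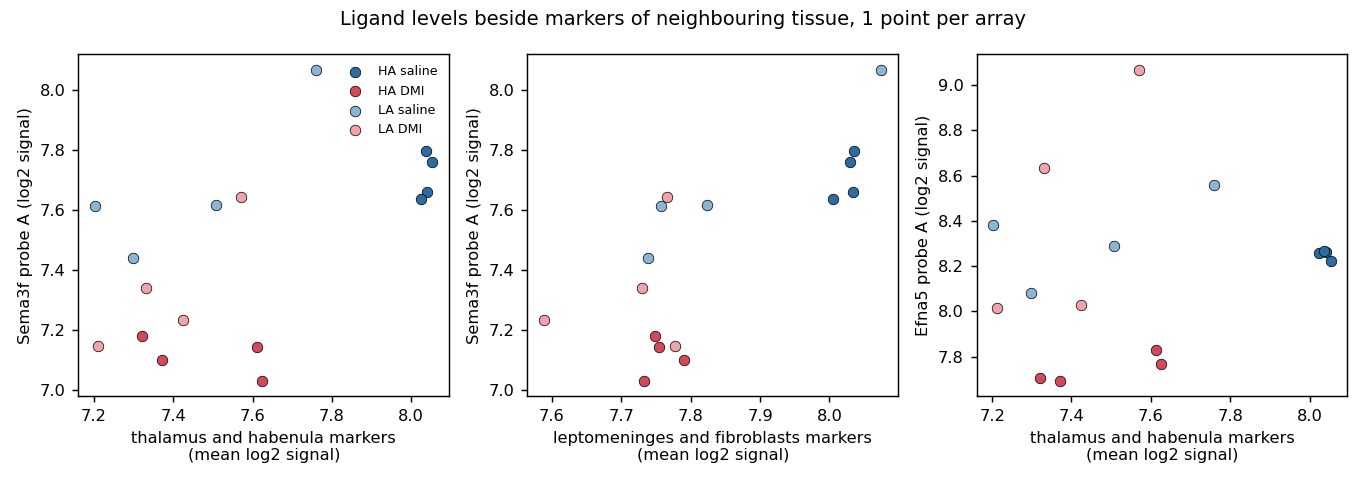
Log2 signal of Sema3f probe A and Efna5 probe A on each array against the mean log2 signal of the thalamus and habenula or the leptomeninges and fibroblast markers, coloured by group. The HA saline arrays lie apart at 8.02 to 8.05 on the thalamic axis, and the highest Sema3f level (8.07) is that of LA saline array 2, which has the highest thalamic level (7.76) of its group.

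The probes of other genes whose pattern over the 16 arrays was most like Sema3f probe A, among 14583 detected probes, were those of Etnppl (Pearson r = 0.93), a lyase enriched in astrocytes, Akap12 (r = 0.91), a scaffold of protein kinase A, Gjb2 (r = 0.86), a connexin, Rcan3 (r = 0.86) and Slc6a13 (r = 0.86), a GABA transporter that is on the leptomeningeal list. For Efna5 probe A they were Cerk (r = 0.94), a ceramide kinase, Anxa5 (r = 0.94), which binds phosphatidylserine, Tmem25 (r = 0.89), Rasgef1c (r = 0.89) and Kmt5c (r = 0.88), a histone methyltransferase. These correlations describe 16 arrays that share line and label.

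None of the wider axon guidance genes was called by label. Of 94 further ephrins, Eph receptors, semaphorins, plexins, netrins, slits, their receptors and intracellular effectors, 83 were measured and 57 detected. In HA 0 of 83 were called by limma and 14 (16.9%) had an unadjusted p under 0.05, against 9.51% of all genes, with a median difference of -0.01. The smallest p values were those of Vav3, a guanine nucleotide exchange factor (-0.56, SE 0.13, adjusted p = 0.074), Plxnb3, a plexin (-0.23, SE 0.06, adjusted p = 0.093), and Ntng1, a membrane-anchored netrin relative (-0.63, SE 0.19, adjusted p = 0.22). The study describes Vav3 and Ntng1, too, as raised by DMI in HA, the opposite of these signs. In LA 0 of 83 were called and 9 (10.8%) had an unadjusted p under 0.05, against 9.31% of all genes. Sema7a, a membrane-anchored semaphorin, met the adjusted p there but not the limit on size, with 9.66 ± 0.08 on DMI-labelled and 9.20 ± 0.16 on saline-labelled arrays (SD, n = 4 each, 0.46, limma adjusted p = 0.032). Next came Sema6d (-0.35, adjusted p = 0.061) and Dpysl3 (-0.41, adjusted p = 0.19). No gene of the list passed the test of HA against LA effects by limma, where 11 (13.3%) had an unadjusted p under 0.05, against 7.78% of all genes. The smallest p values in that test were those of Sema7a (-0.40, adjusted p = 0.29), Sema4a (-0.39, adjusted p = 0.45) and Sema5a (-0.56, adjusted p = 0.49).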

How the data were processed

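The intensity values were deposited by the authors as read from each array, without normalization between arrays or background subtraction. The p-value columns are, per the file headers, detection p-values against negative controls of the same array. The deposited log2 values were made by the authors, by their methods, with quantile normalization of the log2 signals, and served as an alternative. They differ from the values used here by at most 0.046. The software of the reader is not given in the sources used here.

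After log2 transformation the signals of the 16 arrays were quantile normalized (R 4.3.3, limma 3.58.1). A linear model with a mean for each group was fitted to all 25697 probes (lmFit, eBayes), and p-values were adjusted over all of them by Benjamini and Hochberg. Calls needed both an adjusted p under 0.05 and a log2 difference of more than 0.5 in size, the limits in the authors' methods. At these limits the study reports more genes in each line than the probes called here. It lists Efna5, Vav3 and Ntng1 as changed in HA, which were not called here. For the difference between the lines' effects the adjusted p was the only limit. SE values are those of the fitted differences. Gene names came from the platform annotation (23978 probes with 1 symbol, 0 with several, 1719 with none), of which the GRCm38.p6 annotation holds the gene IDs of 23962. Lists used 1 probe per gene, that with the highest mean. The number of arrays limits the precision. Nothing in the sources says that arrays of equal number share animals.

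The members, the marker lists and the wider list were chosen with earlier results of these data known. Named were all members, those genes of the wider list that passed or had the 3 smallest p values in a comparison, and the 5 probes most like Sema3f and Efna5. Alternatives were the deposited values, median scaling, normexp correction (offset 16), detected probes only, array weights, only the 8 arrays compared, the replicate number as a block and leaving out each array. Averaging the HA saline arrays was added after the data were seen. No sequences are printed.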

Additional observations from a re-analysis of the deposited data

Results flagged for a closer look

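In 2 of 56 groups of 4 arrays, 1 array of a detected member probe stood apart by Dixon's criterion (a gap to its nearest neighbour that takes up most of the group's range, at the 95% level), and chance gives about 1 in 20. HA DMI array 1 was the highest of its group at Sema3f probe B, at 7.16, where the others lay between 6.98 and 7.01. It remained below every HA saline array. HA DMI array 3 was the lowest of its group at Epha4, at 6.37, where the others lay between 6.63 and 6.67. Epha4 was not detected on any array of that group.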

How the results depend on the processing

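The counts over all probes moved as follows. In HA 29 probes were called, 4 with median scaling, 50 with array weights, 60 with only the 8 arrays compared, 0 with the HA saline arrays averaged, and 8 to 47 with 1 array left out. In LA 8 were called, 2 with median scaling, 0 with only the 8 arrays compared, 3 with the replicate block, 0 with the HA saline arrays averaged, and 0 to 31 with 1 array left out. For the HA effect minus the LA effect 1 was called, 0 with median scaling, 3 with normexp, 2 with detected probes only, 2 with the replicate block, 0 with the HA saline arrays averaged, and 1 to 28 with 1 array left out. Between the lines, 305 probes were called on saline-labelled arrays (816 with normexp, 77 with the HA saline arrays averaged, 253 to 354 with 1 array left out) and 219 on DMI-labelled arrays (588 with normexp, 203 to 254 with 1 array left out). The ligand and receptor pairs were 13 in HA and 0 with the replicate block, where 4 blocks allow no p under 0.125, and 0 in LA. The cause of these changes was not tested. Fewer arrays or blocks limit what a test can reach, yet with fewer arrays the counts rose in some fits and fell in others.

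Of 70 member results, 23 changed sign under some alternative, the difference without it being at most 0.18 in size, and 6 changed their call. Leaving out 1 array gave ranges that cross 0. In HA this held for Epha5 (-0.015 to 0.14). In LA it held for Nrp1 probe A (-0.17 to 0.031), Nrp1 probe B (-0.16 to 0.067), Nrp2 probe B (-0.065 to 0.013), Efna5 probe A (-0.10 to 0.25), Epha5 (-0.039 to 0.16), Epha7 probe A (-0.040 to 0.20) and Epha7 probe B (-0.18 to 0.053). For the HA effect minus the LA effect it held for Efna3 (-0.084 to 0.014), Epha5 (-0.094 to 0.11) and Epha7 probe C (-0.045 to 0.069). Between the lines on saline-labelled arrays it held for Sema3f probe A (-0.053 to 0.16), Sema3f probe B (-0.095 to 0.21), Nrp2 probe B (-0.0045 to 0.053), Efna5 probe A (-0.16 to 0.0023), Epha5 (-0.16 to 0.035), Epha7 probe A (-0.13 to 0.11) and Epha7 probe C (-0.079 to 0.035). On DMI-labelled arrays it held for Epha5 (-0.14 to 0.012), Epha7 probe B (-0.18 to 0.038) and Epha7 probe C (-0.044 to 0.015).

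Median scaling reversed Nrp1 probe A (0.044), Nrp1 probe B (0.076) and Epha7 probe B (0.059) in LA, Epha5 (-0.028) in the HA effect minus the LA effect, Efna5 probe A (0.15), Epha5 (0.067), Epha7 probe A (0.27) and Epha7 probe C (0.065) between the lines on saline-labelled arrays, and Nrp1 probe A (0.029), Nrp1 probe B (0.021), Epha5 (0.039), Epha7 probe B (0.13) and Epha7 probe C (0.072) on DMI-labelled arrays. Array weights reversed Nrp1 probe B in LA (0.0077), Epha5 (-0.031) and Epha7 probe C (-0.020) in the HA effect minus the LA effect, and Epha7 probe A (0.028) on saline-labelled arrays. Normexp reversed Epha5 in the HA effect minus the LA effect (-0.00046) and Epha7 probe A on saline-labelled arrays (0.0046). The cause was not tested.

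Arrays of equal number did not deviate together (24 pairs, r from -0.39 to 0.24), so the replicate block tests a shared number only. It left the Sema3f probe A call in HA (adjusted p = 0.034). The slide as a block was not run, since the file headers used here give no slide. Signals near background compress differences, which limits Sema3a, Nrp2 and Epha4 most.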

Other observations

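Of the wider axon guidance list, 3 of 83 measured genes were called higher and 4 lower in HA than in LA on saline-labelled arrays (8.43%, against 1.36% of all genes, with no test of that difference). Over all genes, too, more were called between the lines than between the labels. Sema5a, a transmembrane semaphorin, was higher in HA (10.44 ± 0.22 against 9.31 ± 0.24, SD, n = 4 each, limma adjusted p = 4.4e-05), as were Dpysl3, a cytoskeletal phosphoprotein of the collapsin response family (0.58), and Vav3 (0.52). Ntn5, a netrin relative (-0.56), Plxna2, a semaphorin receptor (-0.55), Epha3, an Eph receptor (-0.61), and Ngef, an exchange factor that acts downstream of Eph receptors (-0.57), were lower.

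On DMI-labelled arrays 2 of the 83 were called higher and 1 lower (3.61%, against 0.922% of all genes). Dpysl3 differed by 0.97, Sema5a by 0.57 and Ntn5 by -0.78 (limma adjusted p = 2.6e-05, 0.016 and 5.9e-07), each in the same direction as on the saline-labelled arrays, which are other pools of mice. Sema4a, a further semaphorin, met the adjusted p but not the limit on size (-0.49, adjusted p = 0.0020).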
